A study of Mus musculus with 18 samples.

Results

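Integrins and laminins were followed in vestibular organs, which sense balance in the mouse inner ear, of animals that lack insulin-like growth factor 1 (Igf1 -/-, called Igf1 null here) and of wild-type animals (Igf1 +/+). The set held every gene whose symbol begins with Itga, Itgb, Lama, Lamb or Lamc and that had a probe set naming it alone, 41 of the 19938 genes on the array. It comprised 10 laminin chains, 26 integrin subunits and 5 genes that share the symbol pattern but encode other proteins. All mice were of a hybrid Mf1 and 129/sv background, and 3 arrays were made for Igf1 null and 3 for wild type at each of E18.5 (late gestation), P15 and P90 (postnatal days 15 and 90). The labels call the arrays biological replicates without giving the number of animals behind each, so p-values reflect only how far these arrays differ. In 6 of the 9 wild-type arrays, those of P15 and P90, the free-text description names the null genotype, whereas title, source name and genotype field say wild type, and the last 3 were followed.

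Laminins are secreted trimers of an alpha, a beta and a gamma chain that polymerise into the sheet of the basement membrane, where nidogen, perlecan and type IV collagen join them. Integrins are cell-surface receptors made of an alpha and a beta subunit, which bind matrix proteins or other cells outside and connect to the actin skeleton through talin and kindlin inside. Some subunits serve epithelia, muscle and connective tissue, whereas others are made mainly by leukocytes or platelets. In the inner ear, basement membranes underlie the sensory epithelium and surround nerve fibres and vessels.

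Promoters are shown for a pair of genes that rose after birth (Itgam and Itga2b) and a pair of laminin genes that fell (Lamb1 and Lamb2), since the members split by direction in the same samples. Each is the 250 bases before the annotated start, 5′ to 3′ on the gene's strand, from RefSeq (GRCm38.p6), at chr7:128062390-128062639 (plus strand), chr11:102469884-102470133 (minus strand), chr12:31265043-31265292 (plus strand) and chr9:108479612-108479861 (plus strand). Capitals mark matches, on either strand, to GAGGAA (the core of PU.1 sites, a factor of myeloid cells), AGATAA (bound by Gata1 and its relatives) and GGGCGG (the GC box of Sp1).
Itgam: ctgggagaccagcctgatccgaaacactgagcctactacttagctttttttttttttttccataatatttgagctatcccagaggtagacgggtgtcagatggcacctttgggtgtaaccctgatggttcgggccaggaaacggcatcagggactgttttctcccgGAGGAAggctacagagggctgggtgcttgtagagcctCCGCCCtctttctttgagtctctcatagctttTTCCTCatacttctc
Itga2b: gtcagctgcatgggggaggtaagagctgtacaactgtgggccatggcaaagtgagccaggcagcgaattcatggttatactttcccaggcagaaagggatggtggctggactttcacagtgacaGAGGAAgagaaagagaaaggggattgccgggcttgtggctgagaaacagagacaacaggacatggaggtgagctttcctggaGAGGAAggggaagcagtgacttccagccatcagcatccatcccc
Lamb1: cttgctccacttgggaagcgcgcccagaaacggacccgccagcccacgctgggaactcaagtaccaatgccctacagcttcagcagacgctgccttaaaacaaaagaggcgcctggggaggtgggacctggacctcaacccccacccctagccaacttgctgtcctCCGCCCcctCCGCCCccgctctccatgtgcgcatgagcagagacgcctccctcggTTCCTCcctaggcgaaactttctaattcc
Lamb2: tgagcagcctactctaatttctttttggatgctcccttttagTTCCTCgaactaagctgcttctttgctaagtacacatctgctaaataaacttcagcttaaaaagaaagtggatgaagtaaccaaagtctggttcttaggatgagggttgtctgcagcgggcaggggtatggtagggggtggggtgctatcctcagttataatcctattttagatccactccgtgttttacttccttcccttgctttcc
GAGGAA occurred in 23.3% of 32851 promoter windows of this length, AGATAA in 9.99% and GGGCGG in 32.7%. Itgam held 2 matches to GAGGAA and 1 to GGGCGG, and Itga2b held 2 to GAGGAA. Lamb1 held 1 match to GAGGAA and 2 to GGGCGG, and Lamb2 held 1 to GAGGAA. None of the 4 windows held AGATAA. A promoter was found for 27 of the 41 members, and a match describes the letters only.

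The values are array signals on a log scale of unstated base, quantile normalised between arrays, and a step of 1 equals 2.72-fold in natural logs or 2-fold in log2. Errors of differences are standard errors of the limma fit, and a gene is said to rise or fall where the p adjusted over all 19938 genes was under 0.05. Levels of different genes are not set against each other, because each probe set has its own response. Itgae, the only member with all group means below 3.39 (its highest was 3.21), lay in the range of Y-linked genes in arrays with little Y-linked signal, which serves as a rough guide to dim genes. Hair cell markers averaged 3.82 to 4.30 and supporting cell markers 5.14 to 6.19 over the 18 arrays, and skeletal muscle markers averaged 5.54 to 6.95. These list means are not set against each other either. The muscle means lay above the guide of 3.39, but only 19.8% of all genes had a highest group mean below it. The guide therefore cannot show whether the dissections also held muscle RNA, which was not tested. In bulk RNA, fewer cells of a type and less RNA per cell cannot be told apart. Xist, the RNA of the inactive X chromosome, read 7.42 to 7.91 in the Igf1 null arrays of P90 and 1.86 to 3.33 in the wild-type arrays. Y-linked genes averaged 2, 5.44 and 5.49 in those Igf1 null arrays and 6.12 to 6.32 in the wild-type arrays. Xist and Y-linked levels therefore both went with genotype at that age, and sex was not part of the main fit.

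Most laminin chains fell between E18.5 and P15 in both genotypes. In Igf1 null organs 31 of 41 members were called, 12 higher and 19 lower, where 40.8% of all genes were called (20.3% higher, 20.5% lower). In wild-type organs 34 members were called, 12 higher and 22 lower, against 41.5% of all genes (19.7% higher, 21.9% lower). The arrays of these ages did not overlap for 33 members in Igf1 null and 34 in wild type. Of all genes, 51% and 57.7% did not overlap, so a lack of overlap between these ages was common. Of the laminins, 8 of 10 fell and 1 rose in Igf1 null, and 9 of 10 fell and 1 rose in wild type, with medians of -0.58 and -0.74 where the median of all genes was -0.04 and -0.05. Without normalisation between arrays, 13 members were higher and 8 lower in Igf1 null and 12 were higher and 15 lower in wild type, and the laminin medians were -0.30 and -0.57, where the median of all genes was 0.25 and 0.11. The chain that rose in both was Lamc3, a gamma chain outside the common trimers.

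Lama4, an alpha chain of vessel and muscle basement membranes, had the largest laminin fall in wild type. Its level in Igf1 null was 6.24, 6.36 and 6.35 at P15, against 7.33, 7.20 and 7.21 at E18.5, a difference of -0.93 ± 0.12 (adjusted p = 1.6e-05). In wild type it was 5.93, 6.28 and 5.95 at P15, against 7.41, 7.36 and 7.35 at E18.5, a difference of -1.32 ± 0.12 (adjusted p = 3.8e-07). Every P15 array lay below every E18.5 array in both genotypes.

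Lamb1, the beta chain of the embryonic trimers, read 6.02, 6.02 and 6.07 at P15 in Igf1 null, against 7.16, 7.11 and 7.14 at E18.5, and fell by 1.10 ± 0.08 (adjusted p = 4.6e-08). Its wild-type levels were 5.89, 6.08 and 5.88 at P15, against 7.13, 7.02 and 7.06 at E18.5, a difference of -1.12 ± 0.08 (adjusted p = 3.3e-08). Replicates spread by far less than the difference between the ages. The other laminin falls ran from -0.73 (Lamb2, the beta chain of synapses and mature membranes) to -0.46 (Lama1) in Igf1 null, and from -0.93 (Lama3) to -0.26 (Lamb3) in wild type. Lama3 and Lamb3 belong to the epithelial laminin of hemidesmosomes. Lamb3 differed by -0.15 ± 0.10 in Igf1 null, where it was not called (adjusted p = 0.23). Lamc3 rose by 0.42 ± 0.11 in Igf1 null (adjusted p = 0.0057) and by 0.47 ± 0.11 in wild type (adjusted p = 0.0024). Epithelial marker genes were lower at P15 in the same samples, 8 of 10 called in Igf1 null and 9 of 10 in wild type, with list means of 4.20 to 4.25 at P15 against 4.98 to 5.25 at E18.5 in Igf1 null, and of 3.89 to 4.08 against 4.90 to 5.07 in wild type. Of 10 supporting cell markers, 6 fell and 3 rose in Igf1 null (list means of 5.43 to 5.47 at P15 against 5.92 to 6.12 at E18.5), and 6 fell and 2 rose in wild type (5.14 to 5.37 against 6.01 to 6.19). Of 12 endothelial markers, 4 fell and 0 rose in Igf1 null, and 5 fell and 1 rose in wild type. The part of these cell types in the laminin change was not tested.

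**Figure D1:**
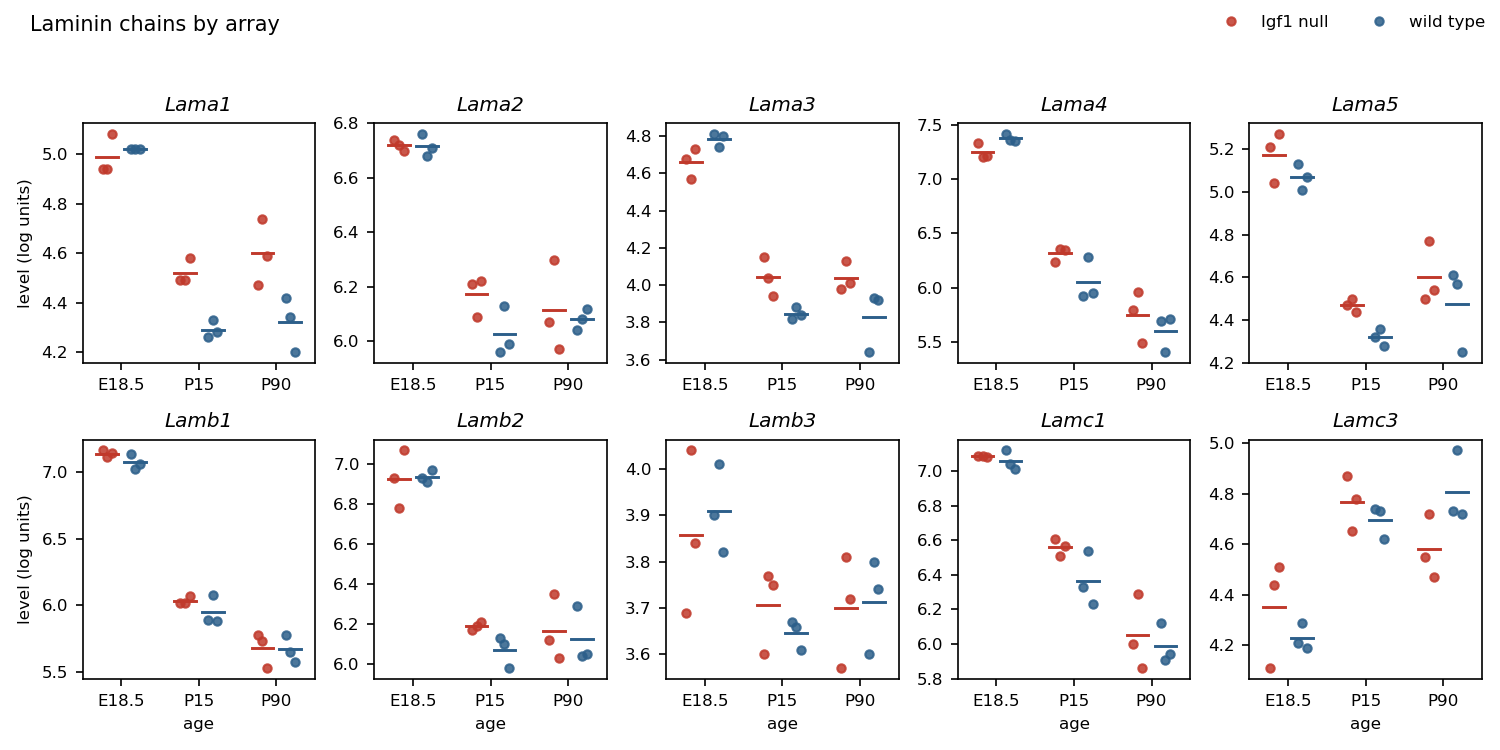
Level in log units of the 10 laminin chains by age, with 1 point per array and a bar at the mean of 3 arrays, Igf1 null left of wild type. In 9 chains the P15 means lie below the E18.5 means in both genotypes, and Lamc3 lies higher at P15.

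Proteins that join laminin in the basement membrane moved the same way: 10 of 15 listed partners fell and 1 rose in Igf1 null, and 10 fell and 0 rose in wild type. Nid2, a nidogen that links laminin to collagen IV, fell by 1.84 ± 0.15 in Igf1 null and by 2.08 ± 0.15 in wild type. Hspg2, which encodes perlecan, fell by 1.27 ± 0.11 in Igf1 null and by 1.47 ± 0.11 in wild type. Of 9 other laminin receptors, among them dystroglycan and its partners, 3 fell in Igf1 null and 5 in wild type, and 0 rose in either.

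Receptors for laminin were divided. Itga3 and Itga7, alpha subunits that pair with Itgb1, rose by P15, and Itga6 and Itgb4, which together form the hemidesmosome receptor, fell. Itga7, the main laminin receptor of muscle, was 5.23, 5.38 and 5.34 at P15 in Igf1 null, against 4.89, 5.18 and 4.92 at E18.5, and 5.36, 5.25 and 5.30 at P15 in wild type, against 4.77, 4.83 and 4.77 at E18.5. The ages did not overlap in either genotype, and the differences were 0.32 ± 0.10 in Igf1 null (adjusted p = 0.02) and 0.51 ± 0.10 in wild type (adjusted p = 0.00078). Skeletal muscle markers went another way in Igf1 null, where 2 of 18 rose and 14 fell, with list means of 5.54 to 5.93 at P15 against 6.48 to 6.95 at E18.5, while in wild type 8 rose and 5 fell (6.14 to 6.34 against 5.71 to 6.15). Single markers of the list differed by -4.23 to 2.46 in Igf1 null and by -3.25 to 3.75 in wild type. The part of muscle in the value of Itga7 was not tested. Itga3 was 5.17, 4.99 and 5.11 at P15 in Igf1 null, against 4.67, 4.66 and 4.80 at E18.5, and 5.01, 4.81 and 5.23 in wild type, against 4.61, 4.48 and 4.62. It rose by 0.38 ± 0.10 in Igf1 null and by 0.44 ± 0.10 in wild type, again without overlap.

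Itga6 was 6.11, 6.01 and 5.99 at P15 in Igf1 null, against 6.62, 6.51 and 6.41 at E18.5, and 5.78, 6.12 and 6.03 in wild type, against 6.64, 6.54 and 6.50. It fell by 0.48 ± 0.15 in Igf1 null and by 0.59 ± 0.15 in wild type. Itgb4 was 4.43, 4.40 and 4.51 at P15 in Igf1 null, against 4.71, 4.79 and 4.90 at E18.5, and 4.46, 4.38 and 4.24 in wild type, against 4.80, 4.67 and 4.70. It fell by 0.35 ± 0.10 in Igf1 null and by 0.37 ± 0.10 in wild type. For both genes all P15 arrays were below all E18.5 arrays.

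Among collagen receptors, Itga1 and Itga10 fell in both genotypes and Itga11 fell in wild type only, while Itga2 was not called in either. No member passed the test that its genotype difference varied with age, so a call in 1 genotype alone is not shown to be a difference between them. Itga10, the collagen receptor of cartilage, was 5.37, 5.48 and 5.47 at P15 in Igf1 null, against 6.44, 6.12 and 6.49 at E18.5, a difference of -0.91 ± 0.10. In wild type it was 5.33, 5.42 and 5.13 at P15, against 6.40, 6.44 and 6.51 at E18.5, a difference of -1.16 ± 0.10 (adjusted p = 2.8e-07). The ages did not overlap in either genotype.

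Subunits that bind the RGD motif of fibronectin and related ligands also went in both directions. Itga5, the alpha subunit of the main fibronectin receptor, was 4.56, 4.74 and 4.77 at P15 in Igf1 null, against 5.63, 5.65 and 5.74 at E18.5, and 4.66, 4.75 and 4.42 in wild type, against 5.56, 5.53 and 5.73. It fell by 0.99 ± 0.13 in Igf1 null and by 1.00 ± 0.13 in wild type. Itga8, which binds nephronectin and fibronectin, was 5.50, 5.40 and 5.37 at P15 in Igf1 null, against 5.93, 5.70 and 5.79 at E18.5, and 4.94, 5.24 and 5.21 in wild type, against 6.09, 5.91 and 5.91. It fell by 0.38 ± 0.12 in Igf1 null (adjusted p = 0.018) and by 0.84 ± 0.12 in wild type (adjusted p = 3.5e-05). Itgav, the alpha subunit shared by several vitronectin receptors, differed by 0.13 ± 0.12 in Igf1 null and 0.02 ± 0.12 in wild type and was not called. Its partner Itgb5 fell by 0.48 ± 0.10 in Igf1 null and by 0.67 ± 0.10 in wild type. Itgb6, an epithelial partner of Itgav, fell by 0.73 ± 0.16 in Igf1 null, and its difference in wild type was -0.10 ± 0.16. Itga9, a receptor for tenascin and other ligands, was 5.10, 4.93 and 4.96 at P15 in Igf1 null, against 6.04, 5.66 and 6.09 at E18.5, and 5.02, 4.98 and 4.72 in wild type, against 5.89, 5.80 and 5.84. It fell by 0.93 ± 0.13 in Igf1 null and by 0.94 ± 0.13 in wild type.

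The largest rises were in integrins of blood cells. Of the 7 leukocyte integrins, 5 rose in Igf1 null and 4 in wild type, and 0 fell in either. Itgb2, the beta subunit that leukocytes pair with Itgal, Itgam, Itgax and Itgad, was 6.18, 5.95 and 5.84 at P15 in Igf1 null, against 3.86, 4.02 and 3.97 at E18.5, and 6.20, 6.20 and 6.31 in wild type, against 4.00, 3.98 and 3.99. It rose by 2.04 ± 0.17 in Igf1 null (adjusted p = 1.3e-07) and by 2.25 ± 0.17 in wild type (adjusted p = 4.5e-08), which in wild type equals 9.47-fold in natural logs or 4.75-fold in log2. Itgam, the alpha subunit of neutrophils and macrophages, was 5.92, 5.59 and 5.59 at P15 in Igf1 null, against 3.55, 3.86 and 3.38 at E18.5, and 5.81, 5.83 and 5.97 in wild type, against 3.45, 3.84 and 3.73. It rose by 2.10 ± 0.22 in Igf1 null and by 2.20 ± 0.22 in wild type. Both genes stood far above their E18.5 range in every P15 array.

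Itgal, the alpha subunit of LFA-1 on lymphocytes and other leukocytes, was 4.81, 4.44 and 4.29 at P15 in Igf1 null, against 3.34, 3.47 and 3.28 at E18.5, and 4.58, 5.07 and 4.69 in wild type, against 2.75, 3.14 and 3.66. It rose by 1.15 ± 0.26 in Igf1 null and by 1.60 ± 0.26 in wild type. Itga4, which lymphocytes and other cells pair with Itgb1 or Itgb7 to bind Vcam1, was 6.33, 6.41 and 6.29 at P15 in Igf1 null, against 5.60, 5.49 and 5.54 at E18.5, and 6.57, 6.75 and 6.64 in wild type, against 5.48, 5.57 and 5.44. It rose by 0.80 ± 0.15 in Igf1 null and by 1.16 ± 0.15 in wild type. Neither gene's ages overlapped. Itgb7 rose by 0.37 ± 0.14 in Igf1 null and by 0.76 ± 0.14 in wild type. Itgax, of dendritic cells, rose by 0.61 ± 0.15 in Igf1 null, and its difference in wild type was 0.36 ± 0.15 (adjusted p = 0.06). Itgad and Itgae differed by at most 0.11 in size in either genotype and were not called. A second, dimmer Itgad probe set averaged 3.41 at P15 against 3.36 at E18.5 in Igf1 null, and 3.56 against 2.95 in wild type. It was not tested by itself.

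Itga2b and Itgb3 form the fibrinogen receptor of platelets, and Itgb3 also pairs with Itgav on osteoclasts and other cells. Itgb3 was 5.97, 6.19 and 6.16 at P15 in Igf1 null, against 5.01, 5.39 and 5.11 at E18.5, and 6.14, 6.32 and 6.0 in wild type, against 5.17, 4.98 and 4.97. It rose by 0.93 ± 0.19 in Igf1 null and by 1.11 ± 0.19 in wild type, with no overlap of the ages. Itga2b rose by 0.69 ± 0.19 in Igf1 null and by 1.07 ± 0.19 in wild type.

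Markers of blood cells moved in the same samples. All 12 granulocyte markers were called higher at P15 in both genotypes, with list means of 5.99 to 6.56 at P15 against 2.83 to 3.13 at E18.5 in Igf1 null, and of 6.38 to 6.56 against 2.87 to 2.99 in wild type. Of 11 B cell markers, 10 rose in Igf1 null and 9 in wild type. Of 6 platelet and megakaryocyte markers, 3 rose in Igf1 null and 5 in wild type. Of 8 T and NK cell markers, 4 rose in Igf1 null and 3 in wild type. Macrophage markers moved both ways, with 2 of 11 higher and 3 lower in each genotype. Their mean stayed between 4.78 and 5.41 in all 18 arrays. The part of these cells in the integrin rises was not tested.

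**Figure D2:**
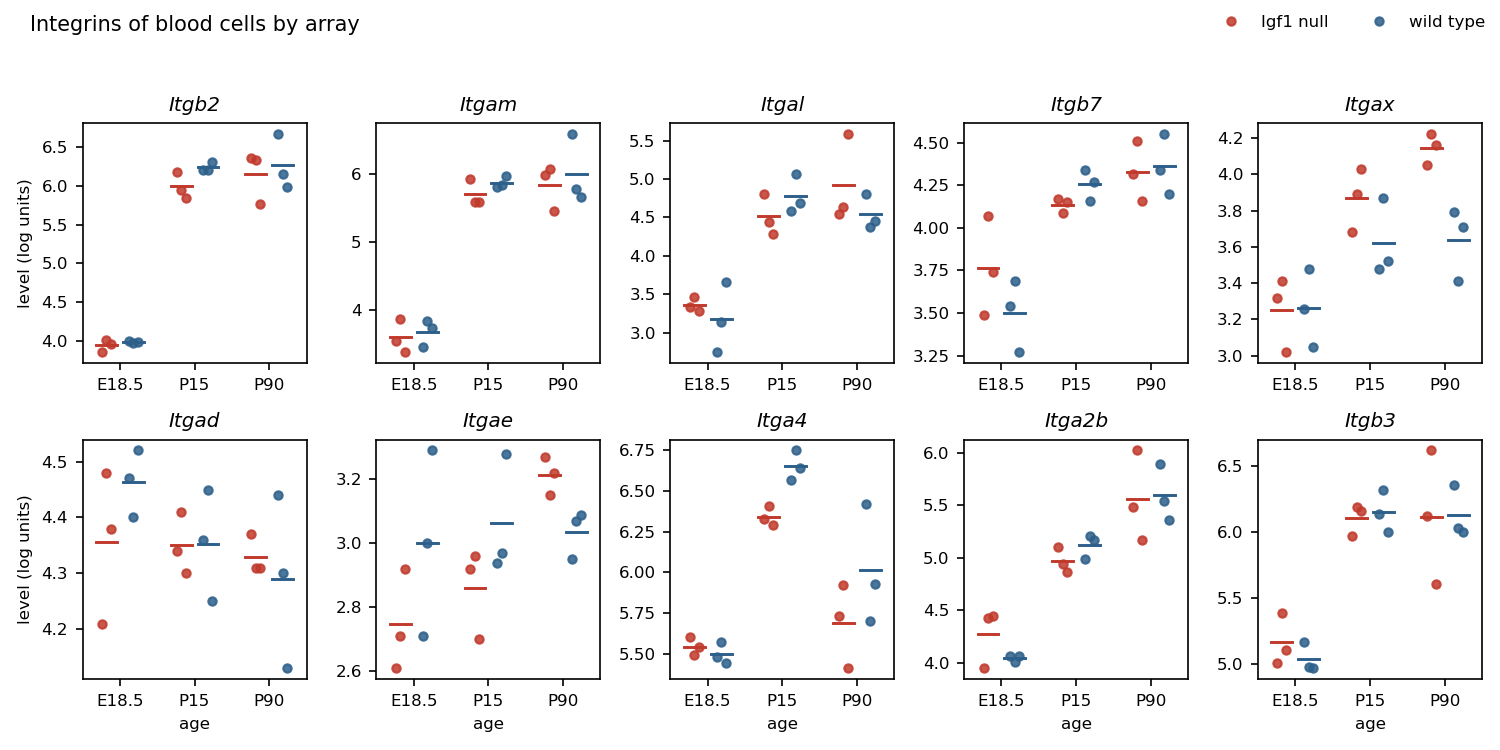
Level in log units of 10 integrin genes of leukocytes and platelets by age, with 1 point per array and a bar at the mean of 3 arrays, Igf1 null left of wild type. Itgb2 and Itgam lie more than 1.5 units higher at P15 than at E18.5, while Itgad and Itgae were not called.

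Calls were compared between genotypes, whose arrays are separate but share a common estimate of each gene's spread. The overlap of calls over all genes was not computed, so the counts have no background beside them. The 11 members that rose in both were 11 of the 12 called in Igf1 null and 11 of the 12 in wild type, and the 18 that fell in both were 18 of 19 and 18 of 22. Only Igf1 null gave calls for Itgax (higher) and Itgb6 (lower), and only wild type for Itgb2l (higher) and Itga11, Itgb1, Itgb3bp and Lamb3 (lower). Itgb1, the beta subunit shared by most matrix receptors, differed by -0.11 ± 0.10 in Igf1 null and fell by 0.27 ± 0.10 in wild type.

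Of the genes that only share the symbol pattern, Itgb1bp1 (ICAP1, which binds the Itgb1 tail) rose by 0.51 ± 0.09 in Igf1 null and by 0.53 ± 0.09 in wild type. Itgb1bp2 encodes melusin, a muscle protein that binds the Itgb1 tail. It was 4.28, 4.38 and 4.36 at P15 in Igf1 null, against 5.98, 6.17 and 5.79 at E18.5, and 4.69, 4.58 and 4.56 in wild type, against 5.03, 5.39 and 5.31. It fell by 1.64 ± 0.14 in Igf1 null and by 0.64 ± 0.14 in wild type, with no overlap. The median difference of the 18 skeletal muscle markers was -1.02 in Igf1 null and 0.27 in wild type, and their part in the fall was not tested.

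**Figure D3:**
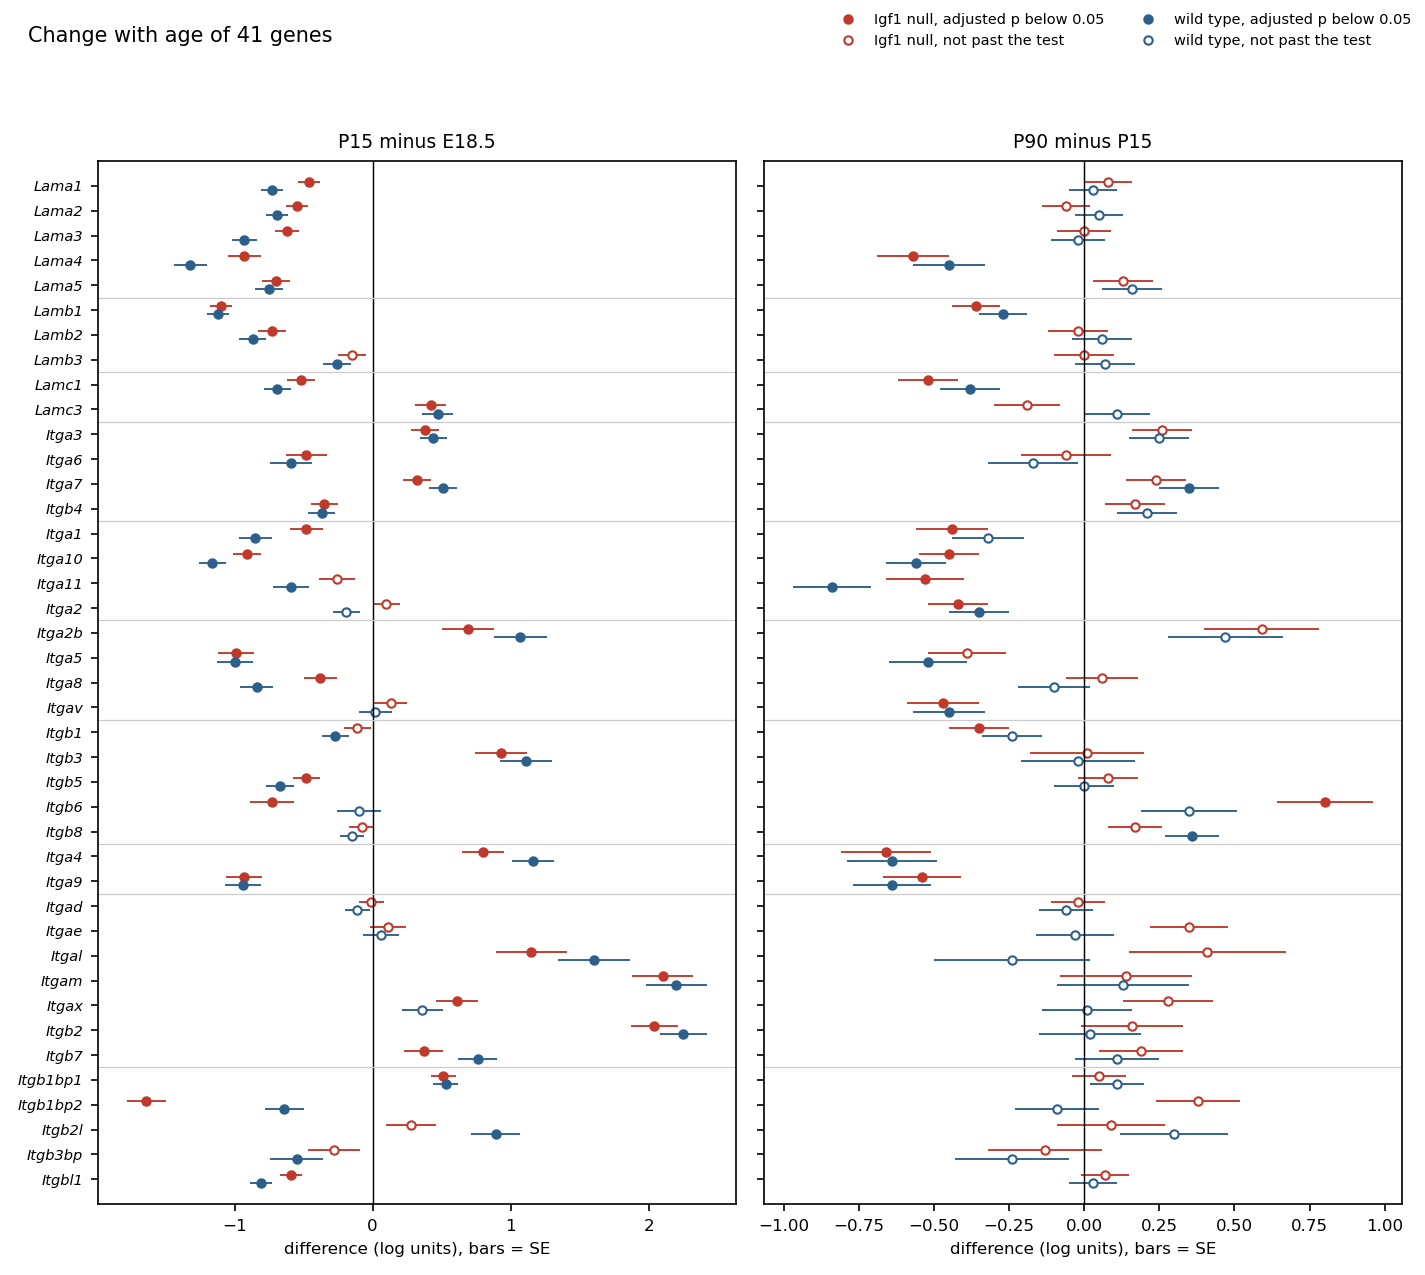
Difference in log units with its SE for the 41 genes, P15 minus E18.5 on the left and P90 minus P15 on the right, Igf1 null above wild type for each gene; filled points passed the adjusted p of 0.05. The left panel shows Itgb2 and Itgam beyond 2 units and the laminins, except Lamc3, below 0.

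Between P15 and P90 fewer members changed. In Igf1 null 12 were called, 1 higher and 11 lower, against 13% of all genes (6.12% higher, 6.83% lower), and in wild type 12 were called, 2 higher and 10 lower, against 17.9% (8.08% higher, 9.78% lower). These splits depend on scaling: without normalisation between arrays 15 were higher and 0 lower in Igf1 null, and 6 higher and 3 lower in wild type, where the median of all genes shifted by 0.39 and 0.20. The called members did not change sign under either scaling, but the falls are relative to the other genes. The wild-type count also rests on single arrays: it was 4 without P15 array 2 or P90 array 2. Xist in wild type read 5.34 to 7.48 at P15 and 1.86 to 3.33 at P90. Age and sex therefore cannot be fully told apart in the wild-type differences of this interval. With Xist as a covariate the wild-type count was 1, and 400 of all genes were called in place of 3561. The Igf1 null count was 8 without P15 array 2 or P90 array 3. The arrays of P15 and P90 did not overlap for 20 members in Igf1 null and 15 in wild type. Of all genes, 31.8% and 34% did not overlap.

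Of the falls, 9 were shared, which is 9 of 11 in Igf1 null and 9 of 10 in wild type, and 0 rises were shared. The share over all genes was not computed here either. Itga4 was 5.73, 5.92 and 5.41 at P90 in Igf1 null and 6.42, 5.70 and 5.93 in wild type, below its P15 levels in every array. It fell by 0.66 ± 0.15 in Igf1 null (adjusted p = 0.0098) and by 0.64 ± 0.15 in wild type (adjusted p = 0.011). B cell markers fell in the same interval, 10 of 11 in each genotype, to list means of 3.92 to 4.30 in Igf1 null and 4.71 to 4.76 in wild type. Their part in the fall of Itga4 was not tested.

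Collagen receptors fell between P15 and P90, 4 of 4 in Igf1 null and 3 of 4 in wild type. Itga11, a receptor of fibroblasts and related cells, was 4.43, 4.71 and 4.23 at P90 in Igf1 null, against 4.94, 5.07 and 4.95 at P15, and 4.01, 3.85 and 4.33 in wild type, against 4.86, 5.12 and 4.73. It fell by 0.53 ± 0.13 in Igf1 null and by 0.84 ± 0.13 in wild type, with no overlap of ages. Itga10 was 4.87, 5.13 and 4.97 at P90 in Igf1 null and 4.66, 4.80 and 4.75 in wild type, and fell by 0.45 ± 0.10 in Igf1 null and by 0.56 ± 0.10 in wild type. Bone and cartilage markers fell too, 6 of 9 in Igf1 null and 7 of 9 in wild type, and their part was not tested.

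Itga9 was 4.38, 4.66 and 4.33 at P90 in Igf1 null and 4.41, 4.07 and 4.30 in wild type, and fell by 0.54 ± 0.13 in Igf1 null and by 0.64 ± 0.13 in wild type. Itga5 was 4.22, 4.49 and 4.20 at P90 in Igf1 null and 4.19, 3.77 and 4.30 in wild type, where it fell by 0.52 ± 0.13, and its difference in Igf1 null was -0.39 ± 0.13 (adjusted p = 0.064). For both genes every P90 array was below every P15 array.

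Among laminins, Lama4, Lamb1 and Lamc1 fell further in both genotypes. Lama4 was 5.80, 5.96 and 5.49 at P90 in Igf1 null and 5.70, 5.41 and 5.71 in wild type, and fell by 0.57 ± 0.12 in Igf1 null and by 0.45 ± 0.12 in wild type. Lamc1, the gamma chain of most trimers, was 6.0, 6.29 and 5.86 at P90 in Igf1 null, against 6.61, 6.51 and 6.57 at P15, and 6.12, 5.91 and 5.94 in wild type, against 6.33, 6.54 and 6.23. It fell by 0.52 ± 0.10 in Igf1 null and by 0.38 ± 0.10 in wild type, with no overlap. The other 7 chains differed by -0.19 to 0.16 and were not called.

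The rises were few. Itgb6 was 4.49, 4.77 and 4.33 at P90 in Igf1 null, against 3.66, 3.75 and 3.77 at P15, a rise of 0.80 ± 0.16 (adjusted p = 0.0037). In wild type it was 4.46, 4.09 and 4.51 at P90, against 4.02, 4.03 and 3.97 at P15, a difference of 0.35 ± 0.16 (adjusted p = 0.13). All 10 epithelial markers had higher means at P90 in Igf1 null, 2 of them called, with list means of 4.44 to 4.81 at P90 against 4.20 to 4.25 at P15, and 4 were called higher in wild type (4.25 to 4.57 against 3.89 to 4.08). Their part in the value of Itgb6 was not tested. Itga7 was 5.35, 5.60 and 5.72 at P90 in Igf1 null and 5.72, 5.75 and 5.50 in wild type, where it rose by 0.35 ± 0.10, and the difference in Igf1 null was 0.24 ± 0.10 (adjusted p = 0.16). Itgb8, which activates TGF-beta with Itgav, was 6.23, 6.36 and 6.31 at P90 in Igf1 null and 6.52, 6.39 and 6.30 in wild type. It rose by 0.36 ± 0.09 in wild type, and its difference in Igf1 null was 0.17 ± 0.09. Skeletal muscle markers rose in 14 of 18 genes in Igf1 null and 11 of 18 in wild type over this interval, and their part in the value of Itga7 was not tested.

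Loss of Igf1 gave no call among the 41 members at any age. The limma test called 0 at E18.5, P15 and P90, 0 for the mean over the ages and 0 for a genotype difference that varied with age, where 0.0802%, 0.015%, 0.296%, 0.0351% and 0.256% of all genes were called. At an unadjusted p under 0.05 there were 3, 4, 8, 6 and 7 members, against 12.5%, 6.97%, 11.1%, 7.68% and 14.5% of all genes. The levels of the 2 genotypes did not overlap for 10 members at E18.5, 9 at P15 and 6 at P90, where 19.7%, 16.5% and 10.5% of all genes did not overlap. Differences were positive, that is higher in Igf1 null, in 19 of 41 members at E18.5, 27 at P15 and 29 at P90, against 45.6%, 53.7% and 53.6% of all genes. These numbers followed the scaling: they were 12, 21 and 30 with array medians subtracted and 9, 21 and 38 as deposited. With 3 arrays a group, a p that misses the threshold does not show that the genotypes are alike.

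**Figure D4:**
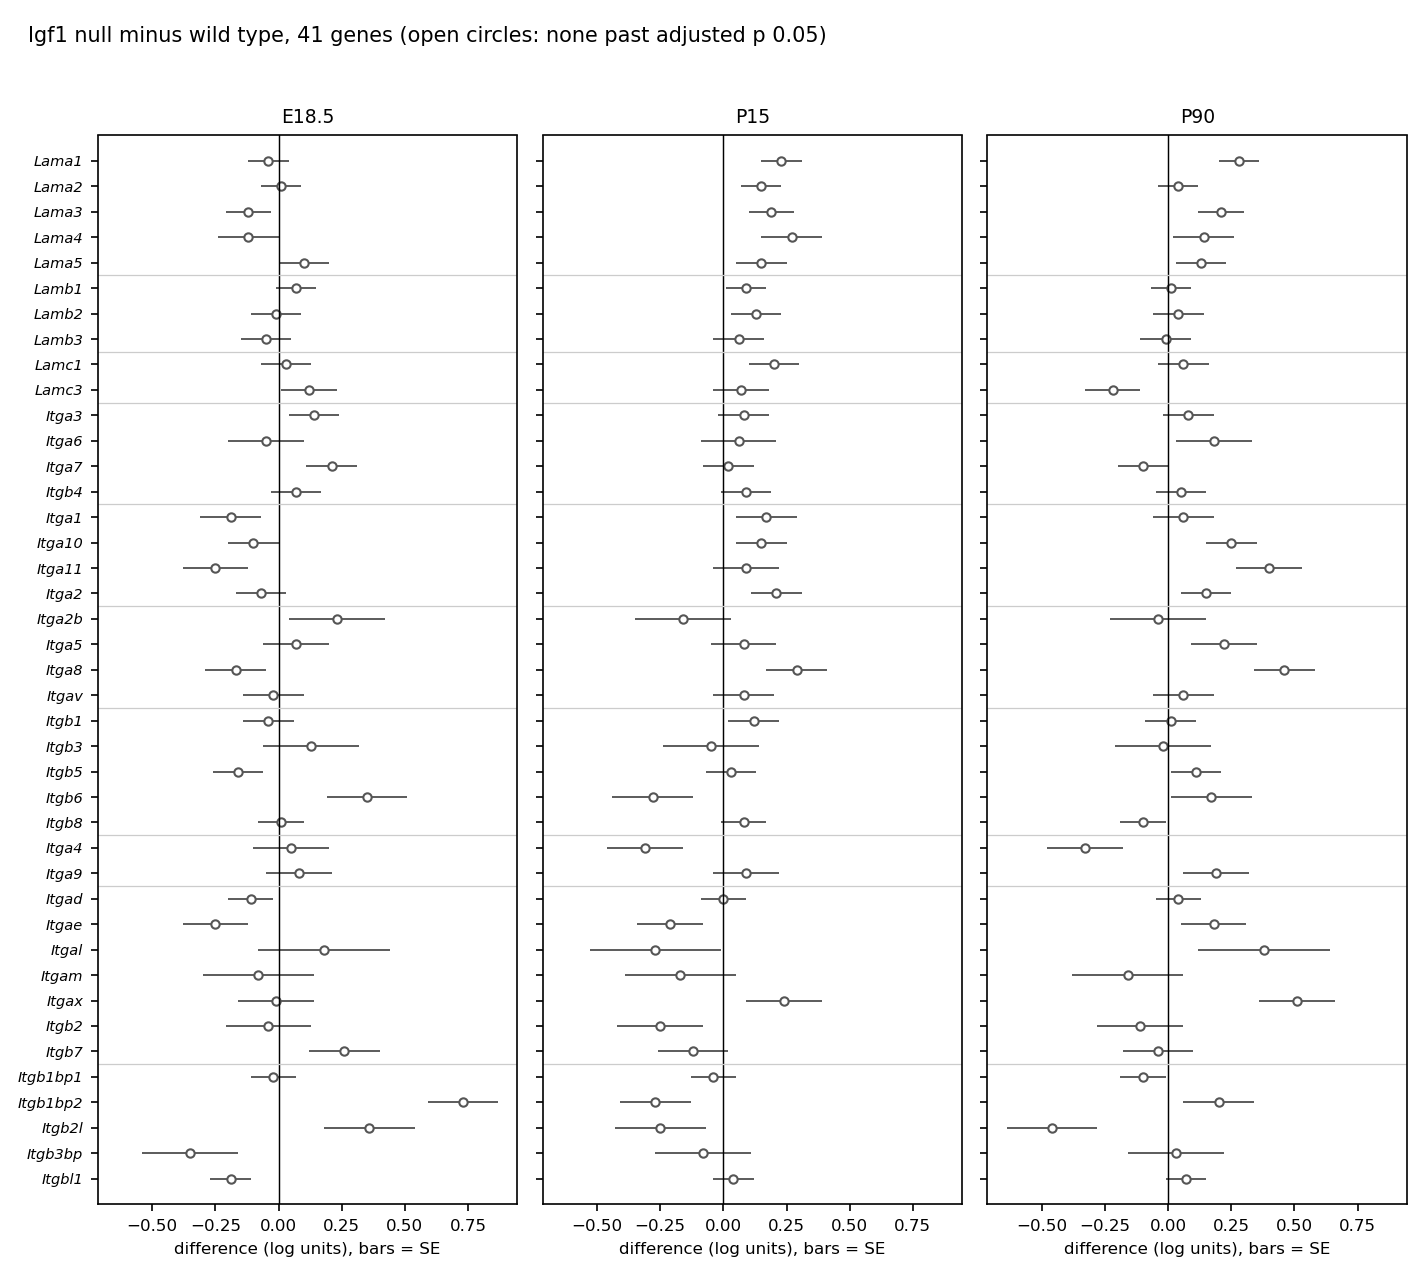
Difference in log units, Igf1 null minus wild type, with its SE, for the 41 genes at E18.5, P15 and P90. All points are open because no adjusted p was under 0.05, and the largest difference is that of Itgb1bp2 at E18.5.

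At E18.5 the smallest p was that of Itgb1bp2, at 5.98, 6.17 and 5.79 in Igf1 null against 5.03, 5.39 and 5.31 in wild type. The difference was 0.73 ± 0.14 (adjusted p = 0.075), without overlap. It passed the test without Igf1 null E18.5 array 1 (adjusted p = 0.042) or wild-type P90 array 2 (adjusted p = 0.049). In the same arrays all 18 skeletal muscle markers had higher means in Igf1 null, 5 of them called, with list means of 6.48 to 6.95 in Igf1 null and 5.71 to 6.15 in wild type, and their part in the value of Itgb1bp2 was not tested. At P15 the order was the other way for both, 4.28 to 4.38 against 4.56 to 4.69 for Itgb1bp2, and 5.54 to 5.93 against 6.14 to 6.34 for the muscle list. Itgb1bp2 also had the smallest p for a difference that varied with age (F = 12.2, adjusted p = 0.1).

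Itga7, of muscle as well, was higher in all E18.5 arrays of Igf1 null than in those of wild type, by 0.21 ± 0.10 (adjusted p = 0.42). At the same age Itgb6 was 4.63, 4.68 and 4.06 in Igf1 null against 4.00, 4.27 and 4.04 in wild type, with overlap (0.35 ± 0.16, adjusted p = 0.38). Itgbl1, a secreted protein with integrin-like repeats, was 5.90, 5.81 and 5.93 in Igf1 null against 6.08, 6.03 and 6.10 in wild type, without overlap (-0.19 ± 0.08, adjusted p = 0.34). Igf1 null E18.5 arrays 2 and 3 also stood apart on the third component, at 16.33 and 18.82 against -9.53 to -7.96 in wild type. Without them and wild-type P90 arrays 1 and 2, the E18.5 difference was 0.74 for Itgb1bp2, 0.10 for Itga7, 0.52 for Itgb6 and -0.17 for Itgbl1, with a single Igf1 null array.

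At P15 all 10 laminin chains had a higher mean in Igf1 null, with a median difference of 0.15, where the median of all genes was 0.01. The median was 0.14 with array medians subtracted and 0.13 as deposited. Epithelial and supporting cell markers also had higher means in Igf1 null at this age, 10 of 10 in each list and 0 called, and their part was not tested. Lama1, an alpha chain of early epithelial basement membranes, was 4.49, 4.49 and 4.58 in Igf1 null against 4.26, 4.33 and 4.28 in wild type, a difference of 0.23 ± 0.08 (adjusted p = 0.52). Lama3 was 4.15, 4.04 and 3.94 in Igf1 null against 3.82, 3.88 and 3.84 in wild type (0.19 ± 0.09, adjusted p = 0.67). Both kept the genotypes apart, whereas Lama4, at 6.24, 6.36 and 6.35 against 5.93, 6.28 and 5.95, overlapped (0.27 ± 0.12, adjusted p = 0.69). Itga8, at 5.50, 5.40 and 5.37 in Igf1 null against 4.94, 5.24 and 5.21 in wild type, did not overlap (0.29 ± 0.12, adjusted p = 0.64).

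At P90 Itga8 had the smallest p, with 5.51, 5.71 and 5.23 in Igf1 null against 4.91, 4.98 and 5.19 in wild type, a difference of 0.46 ± 0.12 (adjusted p = 0.14). Every Igf1 null array was above every wild-type array, the closest pair being 5.23 and 5.19. Itga8 passed the test without the third Igf1 null array (0.58, adjusted p = 0.03) or the third wild-type array (0.54, adjusted p = 0.039) of that age. Lama1 was 4.47, 4.74 and 4.59 in Igf1 null against 4.42, 4.34 and 4.20 in wild type (0.28 ± 0.08, adjusted p = 0.18). Itgax was 4.05, 4.22 and 4.16 in Igf1 null against 3.79, 3.41 and 3.71 in wild type (0.51 ± 0.15, adjusted p = 0.21). Neither overlapped. Itga11 was 4.43, 4.71 and 4.23 in Igf1 null against 4.01, 3.85 and 4.33 in wild type, with overlap (0.40 ± 0.13, adjusted p = 0.29). Supporting cell markers had higher means in Igf1 null in 10 of 10 genes, 1 of them called, with list means of 5.44 to 5.81 in Igf1 null and 5.19 to 5.31 in wild type, and the imbalance of Xist given above holds for these arrays too. Wild-type P90 arrays 1 and 2, which hold the lower Itga8 and Itga11 values, scored 13.46 and 17.04 on the third principal component, against -12 for wild-type array 3 and -25.01 to -12.53 for the Igf1 null arrays. Without them and Igf1 null E18.5 arrays 2 and 3, the P90 difference was 0.29 for Itga8, 0.13 for Itga11, 0.43 for Itgax and 0.40 for Lama1, with a single wild-type array that was assumed to vary like the others. The part of the cell markers and of these arrays in the values was not tested.

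Over the ages Lama1 had the smallest p for the mean difference, 0.16 ± 0.05 (adjusted p = 0.29), followed by Itgax, Itga8 and Itgb1bp2. After Itgb1bp2, the smallest p for a difference that varied with age were those of Itga8 (adjusted p = 0.21), Itga11 (0.25) and Itgb2l (0.26), a granulocyte gene related to Itgb2. Itgb2l was 3.82, 3.72 and 4.14 in Igf1 null against 3.42, 3.75 and 3.43 in wild type at the earliest age, and 4.30, 4.45 and 4.06 against 5.11, 4.79 and 4.29 at P90, so its difference was 0.36 ± 0.18 at E18.5 and -0.46 ± 0.18 at P90. The ranges overlapped at both ages. Wild-type P90 arrays 1 and 2 held the higher P90 values. Without them and Igf1 null E18.5 arrays 2 and 3, the Itgb2l difference was 0.29 at E18.5 and -0.02 at P90. Each of these differences rests on a single array in 1 genotype. None of the listed basement membrane partners, other laminin receptors, adhesion proteins or integrin ligands was called between genotypes at any age.

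**Figure D5:**
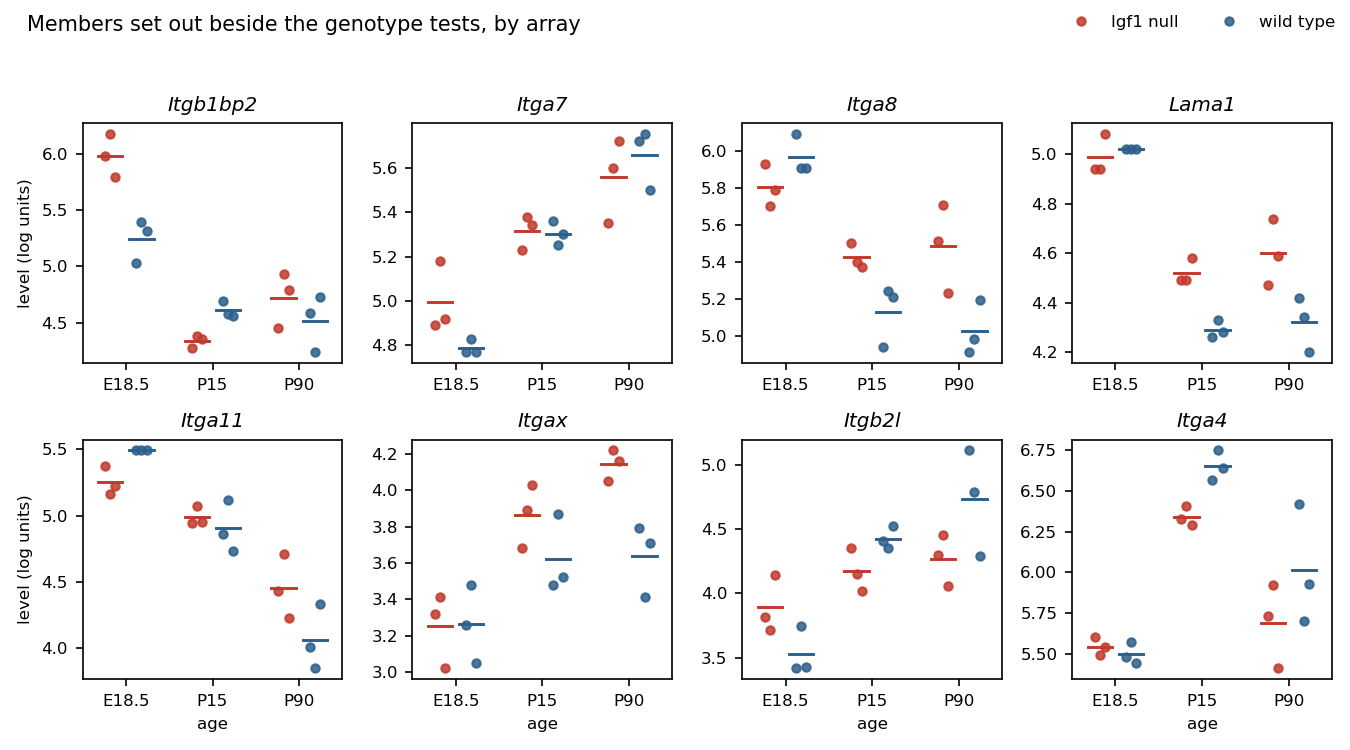
Level in log units by age of 8 members named beside the genotype tests, with 1 point per array and a bar at the mean of 3 arrays, Igf1 null left of wild type. Itgb1bp2 stands higher in Igf1 null at E18.5 (5.98 against 5.24 on average), and Itga8 and Lama1 do at P15 and P90, with no adjusted p under 0.05.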

How the data were processed

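Inner ears were taken from mice perfused with 4% paraformaldehyde, per the labels' protocols, and 100 ng of Trizol RNA was amplified for Affymetrix Mouse Gene 1.1 ST arrays. The authors deposited log values, probably natural log, for 28853 probe sets on 18 arrays. The sources used here state neither the base nor the summarisation. Deposited array medians ran from 3.88 to 4.82, so the values were quantile normalised, which removes overall shifts between groups. The plan had assumed values on a common scale.

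Platform symbols, updated through RefSeq gene identifiers (GRCm38.p6), named 21789 probe sets with 1 symbol. The probe set with the highest mean stood for a gene, and 19938 genes were tested with no filter on intensity. The 3 probe sets naming both Rpl35 and Itgam were left out. Of 2 Itgad probe sets the brighter was used.

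All arrays were fitted with 6 group means (limma 3.58.1, R 4.3.3, lmFit and eBayes, Benjamini-Hochberg over all genes, threshold 0.05), and the code was tested on simulated data. The number of arrays limits the precision. No 2 arrays were identical (highest correlation 0.9897), and no scan date was given. Alternatives covered scaling, dim genes, arrays left out, Xist, the replicate number and the arrays fitted. The members and lists were chosen with earlier results of these data known. Every member may be named. Arrays are given singly for the 4 smallest p per genotype contrast, the 5 largest called rises and falls per age contrast, Itga8 and the laminin receptors, and other genes are the 4 smallest p of a list.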

Additional observations from a re-analysis of the deposited data

How the results depend on the processing

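The counts of members called between genotypes were 0 under all alternatives other than leaving out 1 array, except at E18.5, where a filter on the dimmest genes (mean under 3.4) gave 1 (Itgb1bp2). Leaving out 1 array gave 0 to 1 at E18.5 (Itgb1bp2, without Igf1 null E18.5 array 1 or wild-type P90 array 2), 0 to 0 at P15 and for the mean, 0 to 3 at P90 and 0 to 2 for a difference varying with age. At P90 the 3 were Itga8, Itga11 and Itgb2l, without wild-type array 3, and Itga8 was called without Igf1 null array 3 as well. The 2 were Itgb1bp2 and Itgb2l, without wild-type P90 array 3. For P15 minus E18.5 the counts ran from 27 to 31 in Igf1 null and from 31 to 35 in wild type when 1 array was left out. For P90 minus P15 they ran from 8 to 14 in Igf1 null and from 4 to 14 in wild type when 1 array was left out. The arrays of the 2 groups alone gave 7 in Igf1 null and 3 in wild type. The wild-type count was 1 with Xist as a covariate, and 1 without Igf1 null E18.5 arrays 2 and 3 and wild-type P90 arrays 1 and 2, which stood apart on the third principal component. The cause was not tested. With the replicate number as a block the counts were 0 between genotypes, 31 and 12 with age in Igf1 null, and 33 and 12 in wild type. The numbers did not pair the arrays, since correlations of same-numbered arrays ran from -0.34 to 0.24 and 6 of 45 pairs were over 0.1. The files used here hold no detection call, so differences of dim genes are less certain.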
